A study of Rattus norvegicus with 16 samples.

Results

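The prokineticins are 2 small secreted proteins, Prok1 and Prok2, that act on 2 G protein-coupled receptors, Prokr1 and Prokr2. Their transcripts were followed here in the lungs and adipose tissue of rats exposed to house dust mite (HDM), a common inhaled allergen. All probes assigned to these 4 genes through their RefSeq transcript were taken, which gave 5 of the 45598 probes on the array and 4 of its 16678 named genes. Prok2 had 2 probes and each of the other genes had 1. The genes were chosen by their log2 differences between HDM and control rats in lung and adipose tissue and by which arrays detected them, so those values are given as a description, with no test.

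All animals were male Brown Norway rats. The age given is 7 weeks, for rats that were then sensitised and challenged, and no separate age at sampling is given. Exposure had a sensitisation and a challenge phase of 3 weeks each. For the 5 HDM rats, each weekly dose under the skin held 45 µg of allergen with the adjuvant Al(OH)3, and each of the 3 nasal doses per week that followed held 120 µg without it. The 3 control rats were given saline by both routes, with Al(OH)3 in the injections, so the adjuvant was common to all groups. RNA from lung and from adipose tissue of each rat was hybridised to 1-colour Agilent arrays, 1 array per rat and tissue, giving 16 arrays in 4 groups (lung HDM, lung control, adipose HDM and adipose control). The precision of every value is limited by these numbers of arrays.

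Prokineticins take their name from the contraction of gut smooth muscle that they cause. Prok2 is also released by neutrophils and monocytes, where granulocyte colony-stimulating factor induces it through STAT3, and it acts as a chemoattractant and pain mediator. In the brain it is an output signal of the circadian clock. Prok1 is best known as an endothelial growth factor of steroid-producing glands, and both receptors signal mainly through Gq, phospholipase C and calcium.

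Before the values, the Prok2 probes themselves have to be described, because the main result rests on them. Both probes carried the same 60-base oligonucleotide, so they were 2 spots of 1 sequence and repeat each other technically. The first 30 bases of that oligonucleotide are shown to identify what was measured, with no part in capitals:
Prok2 oligonucleotide: ccaggtttggcatgtttaaggacttctttc

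The Prok2 promoter window of RefSeq (GRCr8, minus strand, chr4:133917884-133918183) runs from 250 bases before the listed start to 50 bases after it. It was searched on both strands for an E-box, CACGTG, the site read by the clock factors Clock and Bmal1, for TGANTCA, the AP-1 site, for TTCNNNGAA, the STAT site, and for ACGTG, the core of the hypoxia site, which overlaps the E-box. The windows had an entry for Prok1, Prok2 and Prokr1, but none was listed for Prokr2. The 2 stretches of the Prok2 window with a match are shown, with the matched letters in capitals, the E-box because clock genes are described below and the AP-1 match because it was the other motif found:
Prok2 E-box, chr4:133918036-133918065: tggggcgcgtggCACGTGcgcgtgtgcgcg
Prok2 AP-1, chr4:133917967-133917996: gctgcctggcgTGAGTCAccgcggggctcg
The E-box began 120 bases before the window's listed start and the AP-1 match 52 bases before it. That listed start lies inside the span RefSeq gives the Prok2 gene, so both matches lie inside the annotated gene and not upstream of it. Most of the Prok2 window lies inside that span too, so little sequence upstream of the gene was searched for any motif. CACGTG occurred in 6.42% of the 33469 promoter windows of this length, TGANTCA in 7.33%, TTCNNNGAA in 8.87% and ACGTG in 19.3%. TTCNNNGAA had no match in the Prok2 window, and both ACGTG matches there, 1 on each strand, lay inside the E-box. No motif was found in the windows of Prok1 and Prokr1.

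Among the 4 genes, Prok2 was the one whose lung values separated HDM from control rats. On the processed signal scale (intensity after background subtraction), its first probe, A_44_P1086470, read 120.2, 119.0, 134.2, 125.5 and 85.3 in the lungs of HDM rats 1 to 5. The same probe read 8.1, 2.2 and 3.4 in the lungs of control rats 1 to 3. All 5 HDM lungs lay far above all 3 control lungs, with HDM rat 5 the lowest of the exposed animals.

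The second spot of the same sequence, A_64_P058060, read 139.2, 133.7, 138.3, 124.7 and 103.2 in the HDM lungs. It read 2.7, 4.8 and 2.1 in the control lungs. The groups again did not overlap, and HDM rat 5 was again the lowest. Prok2 was well above background, as judged by the scanner software, on 5 of 5 HDM lung arrays and on 0 of 3 control lung arrays. In the HDM lungs the second spot exceeded the first by 0.14 ± 0.12 (SD, n = 5) on the log2 scale, whereas in the control lungs, where both were dim, the spots differed by between -1.62 and 1.15.

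After each array was scaled to its 75th percentile, the mean log2 level of Prok2 was -1.88 ± 0.38 (SD, n = 5) in HDM lungs and -6.69 ± 1.05 (SD, n = 3) in control lungs for the first spot. For the second spot the log2 levels were -1.75 ± 0.32 and -7.09 ± 0.53. The log2 differences were therefore 4.81 and 5.34. Because Prok2 in control lungs was not well above background, these sizes depend on how dim values are treated, and only a lower bound is given. With each control array set to the higher of its own Prok2 value and the dimmest signal it measured well above background, Prok2 was at least 11.6-fold higher in HDM lungs by the first spot and at least 12.8-fold by the second. These bounds hold for this scaling and this floor only. The floor is not a strict limit of detection, since a brighter probe can be not well above background. With the normexp background correction, which adds an offset of 50 before the log, and quantile normalization together, the log2 differences were 0.99 and 1.2. Normexp was run in this combination only.

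Arrays of HDM rats 1 to 4 filled row 1 of their slide, whereas that of HDM rat 5 shared row 2 with the 3 controls. Within that shared row, Prok2 was higher in HDM rat 5 than the control mean by 4.18 and 4.85 on the log2 scale. Of the 5 probes, 2 (both Prok2) had lung groups that did not overlap, as did 9.61% of all probes on the array. The choice of these genes used the same contrast, so nothing is read from that count.

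In adipose tissue Prok2 was well above background on none of the 8 arrays. The first spot read 2.2, 4.5, 2.2, 2.3 and 2.1 in HDM rats and 2.2, 2.2 and 2.4 in control rats. The second read 1.9, 3.9, 1.9, 2.1 and 1.8 in HDM rats and 1.9, 1.9 and 2.1 in control rats. The groups overlapped for both spots, and on this unscaled signal HDM rat 2 was the highest array of each. On the scaled log2 level control rat 1 was the highest, at -5.68 for the first spot and -5.89 for the second. The array of HDM rat 2 had the most spots set aside as outliers, 1224 against 355 to 444 on the other adipose arrays. The part of this in its value was not tested. Under the 75th percentile scaling, and compared with adipose tissue of the same HDM rats, Prok2 in their lungs was at least 5.17-fold higher by the first spot and at least 5.69-fold by the second. These bounds hold for that scaling only. Over the alternatives run, the log2 difference between the tissues in HDM rats was lowest at 1.04 for the first spot and 1.27 for the second. The order of the 4 groups was thus lung HDM first, with the other 3 groups not well above background and without an order among them.

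Prok1, the other ligand, stayed near background. In lung its probe, A_64_P134279, read 7.4, 6.8, 22.5, 8.7 and 8.2 in HDM rats and 7.2, 8.6 and 9.2 in control rats. The groups overlapped, and HDM rat 3 was the only lung array well above background. In adipose tissue Prok1 read 20.7, 4.4, 5.6, 2.6 and 7.2 in HDM rats and 4.4, 9.2 and 10.9 in control rats, again overlapping, with HDM rat 1 the only array well above background. The log2 differences between HDM and control means were 0.14 in lung and -0.64 in adipose tissue. The lung value turned to -0.22 without HDM rat 3 and was -0.28 within the shared slide row, and the adipose value lay between -1.11 and -0.33 without single rats and was -0.23 within the row. With normexp and quantile normalization together, both turned, to -0.058 and 0.078. None of the 5 probes had adipose groups that did not overlap, against 6.26% of all probes.

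Adipose HDM rat 1 was also 1 of 2 arrays with a large signal from markers of epididymis and testis, such as the epididymal lipocalin Lcn5. The summed signal of these 10 genes, relative to the 75th percentile of the array, was 3276 in adipose HDM rat 1 and 3941 in adipose control rat 1, and lay between 0.465 and 29.2 on the other 6 adipose arrays. The probe that added most to that sum was the one for Lcn5, at 769 and 1425 on those 2 arrays, and all 10 genes were well above background on both. Prok1 was well above background on the first of these arrays and not on the second. Which fat pad was taken is not given in the sources used here, and the part of this tissue in the Prok1 value was not tested. Without both arrays, the log2 difference of Prok1 in adipose tissue was -1.27.

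**Figure D1:**
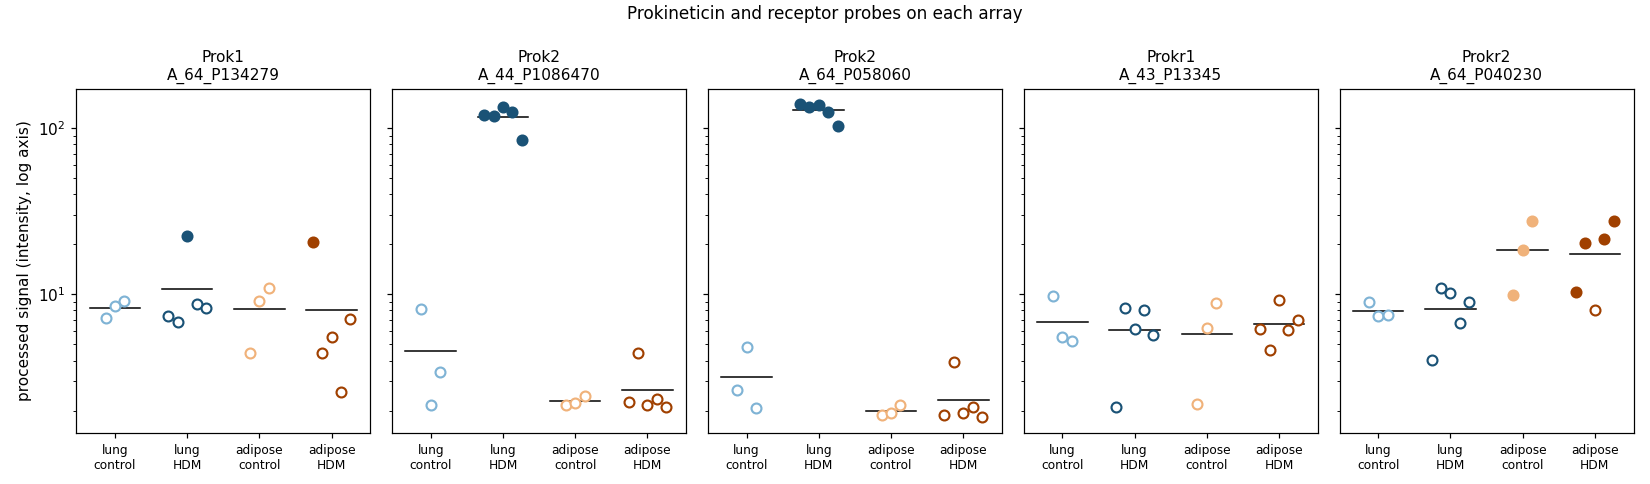
Processed signal (intensity, log axis) of the 5 probes on each of the 16 arrays, by tissue and treatment. Each point is 1 array, filled where the probe was well above background, and each line is the group's mean; the 5 HDM lungs read 85.3 to 134.2 for the first Prok2 spot, and Prokr2 is filled on 7 of 8 adipose arrays and open on all lung arrays.

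Of the receptors, Prokr1 was well above background on none of the 16 arrays. In lung its probe, A_43_P13345, read 2.1, 8.3, 6.2, 8.1 and 5.7 in HDM rats and 9.8, 5.5 and 5.2 in control rats. In adipose tissue it read 6.2, 4.6, 9.3, 6.1 and 7.0 in HDM rats and 2.2, 6.3 and 8.8 in control rats. The groups overlapped in both tissues, and no order of the groups can be given for a probe not well above background throughout.

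Prokr2 was well above background in adipose tissue and on no lung array. Its probe, A_64_P040230, read 10.3, 20.2, 8.0, 21.4 and 27.6 in adipose tissue of HDM rats and 9.9, 18.5 and 27.4 in that of control rats, and was well above background on 7 of the 8 arrays, the exception being HDM rat 3. In lung it read 4.0, 10.9, 10.3, 6.8 and 9.0 in HDM rats and 9.0, 7.4 and 7.5 in control rats, with 0 of 8 arrays well above background. HDM and control groups overlapped in both tissues, at log2 differences of -0.12 in lung and -0.46 in adipose tissue. Without single rats, these ranged from -0.27 to 0.09 in lung and from -0.71 to -0.19 in adipose tissue. Over all alternatives run, the adipose value reached -0.96. Within the slide row that HDM rat 5 shared with the 3 controls, the adipose difference had the other sign, at 0.55.

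Which arrays detected a gene was known when the genes were chosen, so the contrast between tissues is also given as a description, with no test. In control rats the scaled log2 level of Prokr2 was -5.67 ± 0.24 (SD, n = 3) in lung and -3.15 ± 0.29 (SD, n = 3) in adipose tissue, a difference of -2.52. In HDM rats the levels were -5.79 ± 0.58 and -3.61 ± 0.81 (SD, n = 5 each), a difference of -2.18. Under this scaling alone, Prokr2 was at least 4.81-fold higher in adipose tissue than in lung of control rats. No bound is given for HDM rats, because Prokr2 was well above background on 4 of their 5 adipose arrays. In HDM rat 3 neither array was well above background, and its unscaled signals ran the other way, at 10.3 in lung and 8.0 in adipose tissue.

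These tissue differences have a wide background. Under the same scaling 34.1% of all probes were called lower (adjusted p under 0.05 and a fold above 1.5 in limma) in lung in control rats and 30.5% in HDM rats, and the median probe was shifted by -0.58 and -0.35. Relative to that median, Prokr2 was lower in lung by -1.94 and -1.82. With quantile normalization, where the median shifts were -0.06 and -0.09 and 51.4% rather than 26.9% of the control rats' called probes were higher in lung, the Prokr2 differences were -2.08 and -2.11. With normexp and quantile normalization together they were -0.43 and -0.42. Nothing is read from Prokr2 against these percentages. All lung arrays lay on 1 slide and all adipose arrays on another, so slide and tissue cannot be told apart.

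For Prok1, for Prokr1 and for Prok2 in control rats, most or all arrays of both tissues were not well above background, so no fold is given. The log2 difference of Prok1, lung minus adipose tissue, was -1.29 in control rats and -0.51 in HDM rats. That of Prokr1 was -0.9996 in control rats and -1.38 in HDM rats, and the latter came to -0.056 with normexp and quantile normalization together. Without single rats, the Prokr1 value in control rats ranged from -1.67 to -0.59. The Prok2 spots gave -0.62 and -0.82 in control rats, and both turned positive, to 0.45 and 0.39, with quantile normalization. Without single rats, they ranged from -0.99 to -0.094 for the first spot and from -1.07 to -0.58 for the second.

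No gene of prokineticin receptor signalling was called in HDM lungs. Of 29 such genes (G protein subunits, phospholipase C, calcium channels of the endoplasmic reticulum, kinases, arrestins and the receptor accessory protein Mrap2), 0 were called higher and 0 lower in HDM lungs. A call here means an adjusted p under 0.05 and a fold above 1.5 in limma, over all 45598 probes. In lung 220 probes (0.482%) were called higher and 170 (0.373%) lower. All 29 were well above background on at least 1 lung array. Their median log2 difference was -0.07, beside 0.00 over all probes. Mrap2, which retains the receptors inside the cell, differed by -0.10 (adjusted p = 0.99, limma), Gnaq, the alpha subunit of Gq, by -0.30 (adjusted p = 0.726) and Gna11, its close relative, by 0.02 (adjusted p = 1).

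Among 16 genes of the signals known to induce Prok2, 3 rose and 0 fell in HDM lungs, with a median log2 difference of 0.11. Csf3r, the receptor for granulocyte colony-stimulating factor that neutrophils carry, read 409.3, 474.7, 445.7, 641 and 610.6 in HDM lungs and 109.9, 127.3 and 85.5 in control lungs. The groups did not overlap, and the log2 difference was 2.18 (SE 0.15, adjusted p = 0.00075, limma). Socs3, a STAT3 target that limits cytokine signalling, rose by 1.18 on the log2 scale (SE 0.19, adjusted p = 0.0369, limma), and a second Socs3 probe, at 0.90, was not called. Il1b, the inflammatory cytokine interleukin 1 beta, rose by 1.62 (SE 0.26, adjusted p = 0.0373, limma). The cytokine Csf3 itself (-0.08, adjusted p = 1) and Stat3 (0.00, adjusted p = 1) were not called, and Il6 was well above background on none of the arrays. The Socs3 call was lost without any single rat other than HDM rat 1 (adjusted p up to 0.152), and the Il1b call without any but HDM rats 1 and 5 (up to 0.148). With the methods' t-test and the same adjustment, 1 of the 16 was called, and neither Socs3 (adjusted p = 0.0569) nor Il1b (0.0665) was, and with median scaling Socs3 was not called (0.0704). With slide row as a block, 0 of the 16 were called, and Csf3r stood at 2.25 (adjusted p = 0.0543).

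Of 12 measured clock genes, 0 were called higher and 3 lower in HDM lungs, with a median log2 difference of -0.48. The 3 were the negative-limb genes Per1 (-2.003, SE 0.32, adjusted p = 0.0401, limma), Per2 (-1.36, SE 0.18, adjusted p = 0.0208) and Cry1 (-0.80, SE 0.12, adjusted p = 0.0291). A second Per1 probe, at -1.26, was not called, whereas a second probe of Nr1d2, a repressor of Bmal1, was called lower, at -0.82, and the probe counted for it, at -0.50, was not. Of the positive limb, Npas2 differed by 1.11 (adjusted p = 0.0504, limma), Bmal1 by 0.97 (adjusted p = 0.0937) and Clock by -0.06 (adjusted p = 0.987). Bmal1 was called without HDM rat 5 (1.12, adjusted p = 0.0231), with normexp and quantile normalization together (0.74, 0.0361) and with dim probes left out (0.0431), and in each of these settings 2 clock genes were called higher. With quantile normalization alone, or with the percentile taken over probes well above background, 1 was. The hour at which each group was sampled is not given in the sources used here. All 3 calls were lost without HDM rat 1, HDM rat 2 or any 1 control rat, that of Per1 also without HDM rat 5, at adjusted p values up to 0.165. They were also lost with slide row as a block, and that of Per1 with the methods' t-test (0.0725).

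Some markers of neutrophils, cells that carry Prok2, rose in HDM lungs. Of 18 measured genes, 8 were called higher and 0 lower, with a median log2 difference of 1.05. The largest were the calprotectin subunits S100a8 (4.46, SE 0.29, adjusted p = 0.000736, limma) and S100a9 (4.09, SE 0.24, adjusted p = 0.000377), the neutrophil collagenase Mmp8 (3.95, SE 0.25, adjusted p = 0.000639) and the gelatinase Mmp9 (3.23, SE 0.21, adjusted p = 0.000736). The others included the chemokine receptor Cxcr2, Padi4 and Il1r2. Of genes for neutrophil granule proteins made during maturation, Elane and Ltf were well above background on none of the lung arrays, and Camp (1.26) and Ngp (1.03) were not called. The receptors Fpr1 (-0.66, adjusted p = 0.0877, limma) and Cxcr1 (-0.44, adjusted p = 0.142), both well above background on all 8 lung arrays, had values of the other sign and were not called. With quantile normalization, with or without normexp, or with dim probes left out, 1 list gene was called lower. With slide row as a block, 3 of the 18 genes were called higher, and S100a8 and Mmp9 (adjusted p = 0.0539 each, limma) were not among them. With normexp and quantile normalization together, the log2 differences of Mmp8 and Mmp9 came to 1.72 and 1.31. Those of S100a8 and S100a9 were 4.60 and 4.25.

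The summed signal of the 18 genes, relative to the 75th percentile of the array, was 203.5, 157.3, 289, 163.7 and 138.5 in the lungs of HDM rats 1 to 5 and 22.3, 22.1 and 22.0 in those of the controls. The S100a9 probe added most to the sum, at 73.8 to 149.7 in HDM lungs and 5.02 to 5.97 in control lungs. HDM rat 3 was the highest and HDM rat 5 the lowest of the exposed animals, as for the scaled level of Prok2. Both measures were divided by the same percentile of each array, which was lowest in HDM rat 3, at 376, and highest in HDM rat 5, at 488. The part of neutrophils in the Prok2 values was not tested. In bulk tissue, more cells of a type and more RNA per cell cannot be told apart.

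The other cell type lists had no calls in lung by the fit described, but 1 eosinophil marker was called higher without HDM rat 1, and 1 eosinophil and 1 macrophage marker with dim probes left out. The median log2 difference was 1.22 over 6 eosinophil markers, of which the granule protein Prg3 had the largest difference (2.73, adjusted p = 0.0581, limma). Prg3 was well above background on 5 of the 8 lung arrays, so that size and its place as the largest depend on how dim values are treated. The median was 0.16 over 10 macrophage markers, -0.10 over 8 endothelial markers, -0.14 over 8 lung epithelial markers, 0.52 over 8 adipocyte markers and 0.26 over 10 epididymis and testis markers. The tissue labels matched their markers: the lung list summed to 1662 to 2008 on lung arrays and 3.17 to 5.12 on adipose arrays, and the adipocyte list to 12.2 to 34.4 on lung arrays and 1160 to 2232 on adipose arrays.

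**Figure D2:**
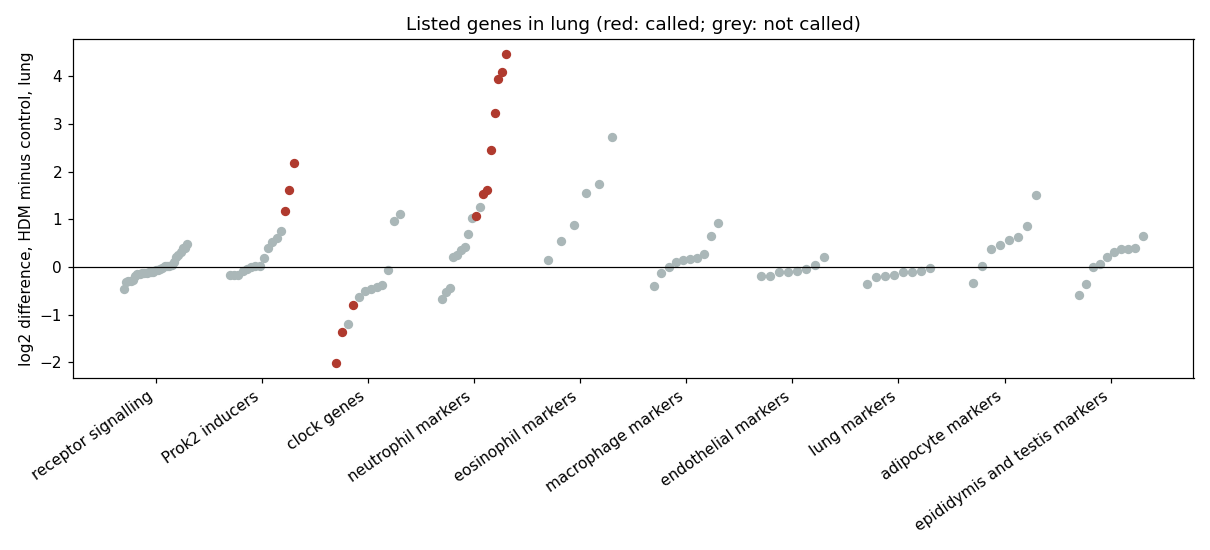
Log2 difference between HDM and control lungs for each measured gene of the 10 lists, one point per gene, ordered within a list by its value; red points were called and grey points were not. The neutrophil list holds 8 called genes, all higher, the clock list 3, all lower, and the receptor signalling list 0.

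In adipose tissue no probe was called between HDM and control rats by limma (0% of 45598, with 4515 at an unadjusted p under 0.05, and 0 by the methods' t-test). None of the listed genes was therefore called there. The calprotectin genes had large values nevertheless: S100a8 read 343.4, 454.4, 833.5, 246.1 and 183.3 in adipose tissue of HDM rats and 3.8, 20.8 and 17.1 in that of control rats. The groups did not overlap, at a log2 difference of 4.66 (adjusted p = 0.154, limma), and S100a9 differed by 3.83 (adjusted p = 0.0853). S100a8 was not well above background in adipose control rat 1, so the size of 4.66 depends in part on a dim value. Mmp8, like Prok2, was well above background on none of the adipose arrays. The summed neutrophil list could not be read in adipose tissue, because Lcn2, which contributed 161 and 412 on the 2 arrays with epididymis markers, made up most of the signal there. A test of the difference between tissues in the HDM change called 0.00219% of all probes, 1 in number, and no listed gene; Mmp8 came to 3.37 (adjusted p = 0.163) and Mmp9 to 2.75 (adjusted p = 0.0995).

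The genes whose log2 values followed those of Prok2 most closely over the 16 arrays were found by the root mean square difference from the Prok2 probe with the higher mean (A_44_P1086470), each probe centred on its own mean. Among 16544 genes with a value on all arrays, the closest was Mmp8, at 0.94. It was followed by Pglyrp1, a bactericidal protein of neutrophil granules, at 0.98, and by Mmp9, at 1.06. The next were Ceacam4, the lectin receptor Clec4e, the IgA receptor Fcar, the protease inhibitor Csta, Padi4, which citrullinates histones, the lectin receptor Clec4d (by the closer of its 2 probes) and, in the last place at 1.24, Cyp4f18, an enzyme that inactivates leukotriene B4.

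All 10 had HDM and control lung groups that did not overlap, at log2 differences between 1.62 and 3.95, which their likeness to Prok2 already implies. Of the 10, 3 are on the neutrophil list. Clec4e came closest to Prok2 in detection, being well above background on 5 HDM lung arrays, 0 control lung arrays and 0 adipose arrays. With the 8 lung arrays alone, 3 of the 10 genes were kept and the closest gene was S100a8, at 0.58. With genes well above background on at least 5 arrays, all 10 were kept.

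**Figure D3:**
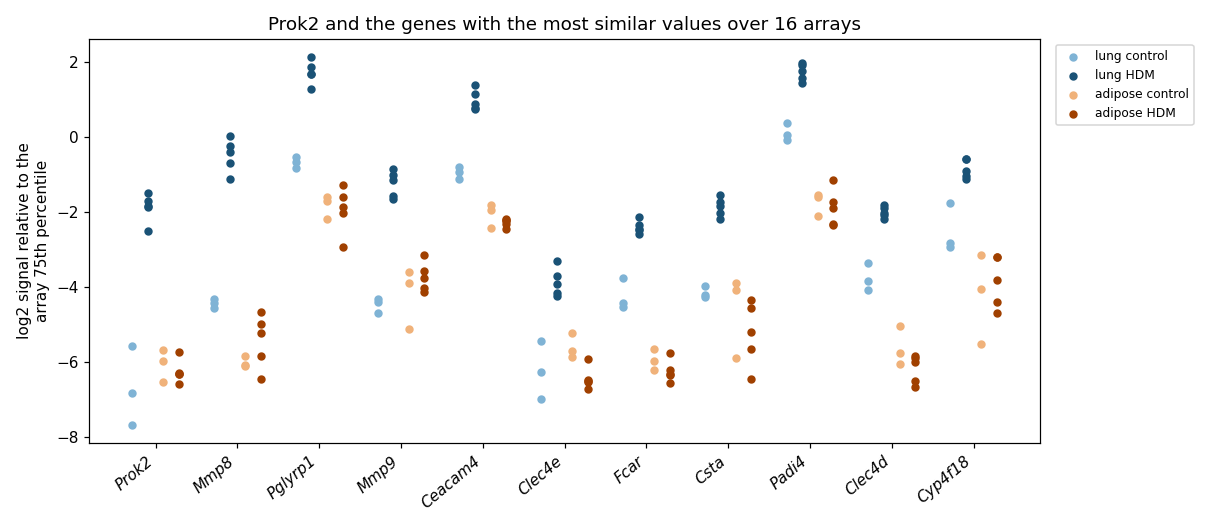
Log2 signal relative to the 75th percentile of the array for Prok2 (probe A_44_P1086470) and the 10 genes with the most similar values over the 16 arrays, one point per array, coloured by group. Levels of different probes are not comparable; in each gene the 5 HDM lungs lie above the 3 control lungs and, for Prok2, all groups but the HDM lungs lie below -5.5.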

How the data were processed

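RNA (50 ng per sample) from lung and adipose tissue of 8 rats was labelled with Cy3 and hybridised to 16 Agilent rat arrays. For each array the authors deposited scanner output from Agilent Feature Extraction 12.0.3.1, in which the processed signal is a background-subtracted intensity on a linear scale. They also deposited a table of log2 values per tissue, scaled to the 75th percentile and centred on each probe's median. Of its values, 99.97% in lung and 99.85% in adipose tissue lay within 0.1 of the values computed here, and that table served as an alternative. The file headers name rn4 as the design's build, so no gene coordinates are printed, and the promoter windows are those of RefSeq on GRCr8.

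Control and outlier spots were left out, repeat spots were averaged as log2 values, and each array was scaled by subtracting the log2 of its 75th percentile. A probe was well above background where the software flagged most of its spots, and for a single spot by that spot's flag. Probes were named through the RefSeq accession in the files, which gave 21229 of 45598 probes a symbol. For genes with several probes, the probe with the highest mean was used. Groups were compared with limma 3.58.1 in R 4.3.3, HDM against control within each tissue and lung against adipose tissue over all 16 arrays, with Benjamini-Hochberg adjustment over all probes. The study names an unpaired t-test with the same adjustment, which was run as an alternative. A bound was computed from the mean of the bright group and, per dim array, the higher of the probe's own value and the lowest signal well above background.

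The genes named in the text are all probes of the 4 members, up to 4 called genes of each list by size, 10 fixed pathway genes and the 10 genes most like Prok2. Others named (Il6, Npas2, Nr1d2, Cxcr2, Il1r2, Elane, Ltf, Camp, Ngp, Fpr1, Cxcr1, Lcn2, Prg3 and Lcn5) are list genes chosen after their values were seen. The members and all lists were chosen with earlier results of these data known. Nothing in the labels separates cultures or litters, and each array is 1 rat and tissue. The study states that lung and adipose data came from the same animals for the HDM-exposed rats. Lung and adipose arrays of 1 treatment and number were taken as 1 rat, also for the controls. The members' contrasts, between tissues too, are given with no test. The correlation of the deviations from the group means, between lung and adipose arrays taken as 1 rat, lay between -0.10 and 0.11. HDM and control rats of 1 number are different animals. Scripts were tested on simulated data. Figures were drawn with matplotlib 3.10.9. A neutrophil list gene is counted in its list and not reported here by name.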

Additional observations from a re-analysis of the deposited data

Results flagged for a closer look

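Of 60 groups of 5 arrays, 2 had a sample far from the others by Dixon's ratio, the gap to the nearest array over the range of the group, at its critical value, which by its construction marks about 1 in 20 groups by chance. Prok1 in the lung of HDM rat 3 stood at -4.06 on the scaled log2 scale, against -5.99 to -5.69 in the other 4 HDM lungs, and was well above background on that array only. Csf3r in adipose tissue of HDM rat 2 stood at -0.85, against -4.46 to -3.89 in the other 4 HDM rats, of which 3 were well above background. That is the array with 1224 outlier spots, and the part of this in the value was not tested. The change of Prok2 with HDM differed between lung and adipose tissue by 5.52 on the log2 scale for its second spot. Of the groups in that difference, only the HDM lungs were well above background, so its size depends on how dim values are treated. The value of 5.52 belongs to the contrasts that chose the gene and is a description.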

How the results depend on the processing

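The Prok2 difference between HDM and control lungs kept its sign under all alternatives run. Its 2 spots ranged from 4.32 to 5.37 and from 5.11 to 5.63 when single rats were left out. Normexp, run only together with quantile normalization, gave 0.99 and 1.2, and the second spot came to 4.85 with quantile normalization and 4.85 with slide row as a block. Prokr2 kept its direction between tissues throughout, from -2.81 to -2.29 in control rats and from -2.59 to -1.93 in HDM rats without single rats. Normexp with quantile normalization gave -0.43 and -0.42. Leaving out the 2 adipose arrays with epididymis markers, an alternative chosen after seeing the data, gave -2.68 and -2.29, and brought Prok1 in control rats to -1.45.

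The number of probes called in lung, 390, became 686 without dim probes, where fewer probes were tested, 25 with slide row as a block and 100 to 333 without single rats. It fell to 163 without HDM rat 1, 161 without HDM rat 2, 210 without HDM rat 5, and 125, 100 and 175 without control rats 1, 2 and 3. In adipose tissue 0 became 8 with quantile normalization, 3 with median scaling, 1 with normexp and quantile normalization, 5 without dim probes and 1 with the row as a block, and stayed at 0 to 0 without single rats. Between tissues in control rats 21276 became 12917 with quantile normalization alone, 8061 with normexp added to it and 13697 without dim probes. For HDM rats, in the same order, 20753 became 14346, 7892 and 13809. Without single rats these counts lay between 15555 and 21958 and between 18362 and 21352. The 1 probe with a difference between tissues became 2 with median scaling and 0 to 1 without single rats. The cause was not tested for these changes unless stated.

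With the replicate number as a replicate block, 0 probes were called in lung (5550 at an unadjusted p under 0.05). HDM and control rats share only a number: their deviations correlated from -0.08 to 0.05 for lung arrays and from 0.10 to 0.59 for adipose arrays. With the rat as a block, 20183 and 20205 probes were called between tissues in control and HDM rats.

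Signs turned only for values that were not called or not well above background. In control rats the tissue difference of Prok2 became 0.45 and 0.39 with quantile normalization and 0.088 and 0.12 with normexp added, which also gave 0.025 for Prok1 and 0.018 for Prokr1. In lung, the replicate block turned Mrap2 to 0.026, Gna11 to -0.19, Csf3 to 0.16 and Clock to 0.0041. The row as a block turned Mrap2 to 0.11 and Stat3 to 0.20. Gna11 became -0.028 with quantile normalization, -0.034 with median scaling and -0.0086 with normexp and quantile normalization. Stat3 became 0.056 with quantile normalization and 0.036 with the percentile taken over probes well above background. Without single rats, Mrap2 ranged from -0.24 to 0.048, Gna11 from -0.092 to 0.11, Csf3 from -0.21 to 0.057, Stat3 from -0.072 to 0.067 and the Prok1 tissue difference in HDM rats from -0.93 to 0.020, the last without HDM rat 1.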
